A study of Mus musculus with 6 samples.

Results

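The genes described here are nucleic acid sensors and antiviral effectors in inguinal fat of mice housed in groups or alone. They are 10 genes of the 56691 in the deposited table, taken because their symbol equals a sensor of foreign nucleic acid (Ifih1, Dhx58, Eif2ak2, Zbp1, Tlr7) or an interferon-induced antiviral effector (Mx1, Mx2, Rsad2, Bst2, Samhd1). Every listed symbol matched 1 row, and all 10 had enough counts to be tested.

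Cells detect viral or misplaced self nucleic acid with receptors in the cytosol and in endosomes. These receptors signal to the transcription factors IRF3 and IRF7, which switch on type I interferon genes. Secreted interferon acts through its receptor, the kinases JAK1 and TYK2 and a transcription factor complex that holds STAT2 and IRF9 and binds the interferon-stimulated response element in the promoters of antiviral effectors and of most of the sensors themselves. In fat, macrophages and adipocytes both carry this pathway, and it runs at a low level without infection.

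RNA was sequenced from inguinal white adipose tissue (iWAT), the fat depot under the skin of the groin, from 6 C57BL/6J mice, all male, with 1 library per mouse. The animals entered the study at 8 weeks of age and spent 8 weeks in group housing (4 to 6 mice per cage, 3 libraries) or in single housing (1 mouse per cage, 3 libraries), a contrast meant to model social isolation. The labels name no agent, transgene or infection in either group, and they do not say whether the group-housed mice shared a cage or litter. C57BL/6J is a limited model for the Mx genes, since most common laboratory strains carry defective alleles of Mx1 and Mx2.

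Counts assigned to genes ranged from 21410779 to 35318376 per library. The fat identity of the tissue was clear, since all 8 adipocyte markers (Adipoq, Lep, Plin1 and others) were present in every library, with a summed level of 3156 to 5448 FPKM (counts scaled by exon length and library total). Skeletal muscle transcripts were uneven. The 10 muscle markers summed to 1101 FPKM in group-housed library 2 and 3145 FPKM in single-housed library 3, against 17.5 to 245 FPKM in the other libraries. The pad also holds a lymph node. The 8 B and plasma cell markers summed to 355 and 198 FPKM in those same libraries, against 476 to 603 FPKM elsewhere. Of these 8, Jchain was instead highest in single-housed library 3 (53.5 FPKM, against 7.11 to 30.8 FPKM in the others). Mzb1 was not low there either (3.79 FPKM, against 2.39 to 5.96 FPKM in the others). The 9 T and NK cell markers summed to 129 and 71.0 FPKM in group-housed library 2 and single-housed library 3, against 235 to 284 FPKM. Both libraries, called muscle-rich here, stand apart, and results are also given without them.

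Promoters are shown first, because interferon acts on its target genes through them. RefSeq promoter windows of 300 bases (250 before and 50 after the transcript start, build GRCm38.p6) were found for 5 members, namely Ifih1, Eif2ak2, Rsad2, Bst2 and Samhd1. The core of the interferon-stimulated response element, GAAANNGAAA on either strand, occurred in 4 of these 5 windows and in 3.44% of the 32851 promoter windows of the table. In the lines below the capitals mark that core, and each sequence reads 5′ to 3′ on the strand of its gene.
Bst2 (chr8:71537568-71537627, minus strand): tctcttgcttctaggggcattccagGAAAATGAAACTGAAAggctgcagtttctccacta
Rsad2 (chr12:26456538-26456597, minus strand): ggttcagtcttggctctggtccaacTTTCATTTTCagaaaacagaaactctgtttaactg
Eif2ak2 (chr17:78882535-78882564, minus strand): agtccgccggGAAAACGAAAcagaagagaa
Ifih1 (chr2:62646206-62646235, minus strand): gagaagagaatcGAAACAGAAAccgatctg

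Bst2 held 2 overlapping copies of the core, from base -130 to base -115 relative to the start. In Rsad2 the core lay on the opposite strand, from -120 to -111. The cores of Eif2ak2 and Ifih1 lay just after the annotated start, at bases 19 to 28 and 33 to 42. Samhd1 held no match in its window. The core of the gamma-activated site, TTCNNNGAA, a motif of promoters that respond to interferon-gamma, occurred in 3 of the 5 windows (Bst2, Eif2ak2 and Samhd1) and in 8.30% of all windows. In Bst2 it ran from -136 to -128 and overlapped the first response element. These matches are letters in a window and were not tested for binding.

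All 10 members had lower counts in single-housed than in group-housed mice by the fitted fold change, but 0 passed the test over all genes. The log2 fold changes, single minus group housing, ran from -1.59 (Mx2) to -0.30 (Samhd1), with a median of -0.78 against -0.01 over all 18085 genes tested. In edgeR's quasi-likelihood test with Benjamini-Hochberg adjustment the members' adjusted p ranged from 0.222 to 0.858. An adjusted p below 0.05 was reached by 0% of all genes, the lowest being 0.120. With the threshold set on the unadjusted p, 8 of the 10 members were lower and 0 higher, where 3.47% of all tested genes were lower and 3.49% higher (6.96% in either direction). DESeq2, the alternative count test, called 5 members lower (Dhx58, Zbp1, Mx1, Mx2 and Bst2) and 0 higher, where it called 0.713% of all genes lower and 0.431% higher (1.14% in either direction). In 7 members every single-housed value lay below every group-housed value after scaling for library composition (TMM-scaled CPM), which was so for 6.78% of all tested genes, with 6.61% the other way round. Without the muscle-rich libraries 8 members again passed the unadjusted threshold in edgeR, where 12.0% of all genes did. DESeq2 called 6 there, against 2.14% of all genes, namely Eif2ak2, Zbp1, Tlr7, Mx1, Mx2 and Bst2.

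**Figure D1:**
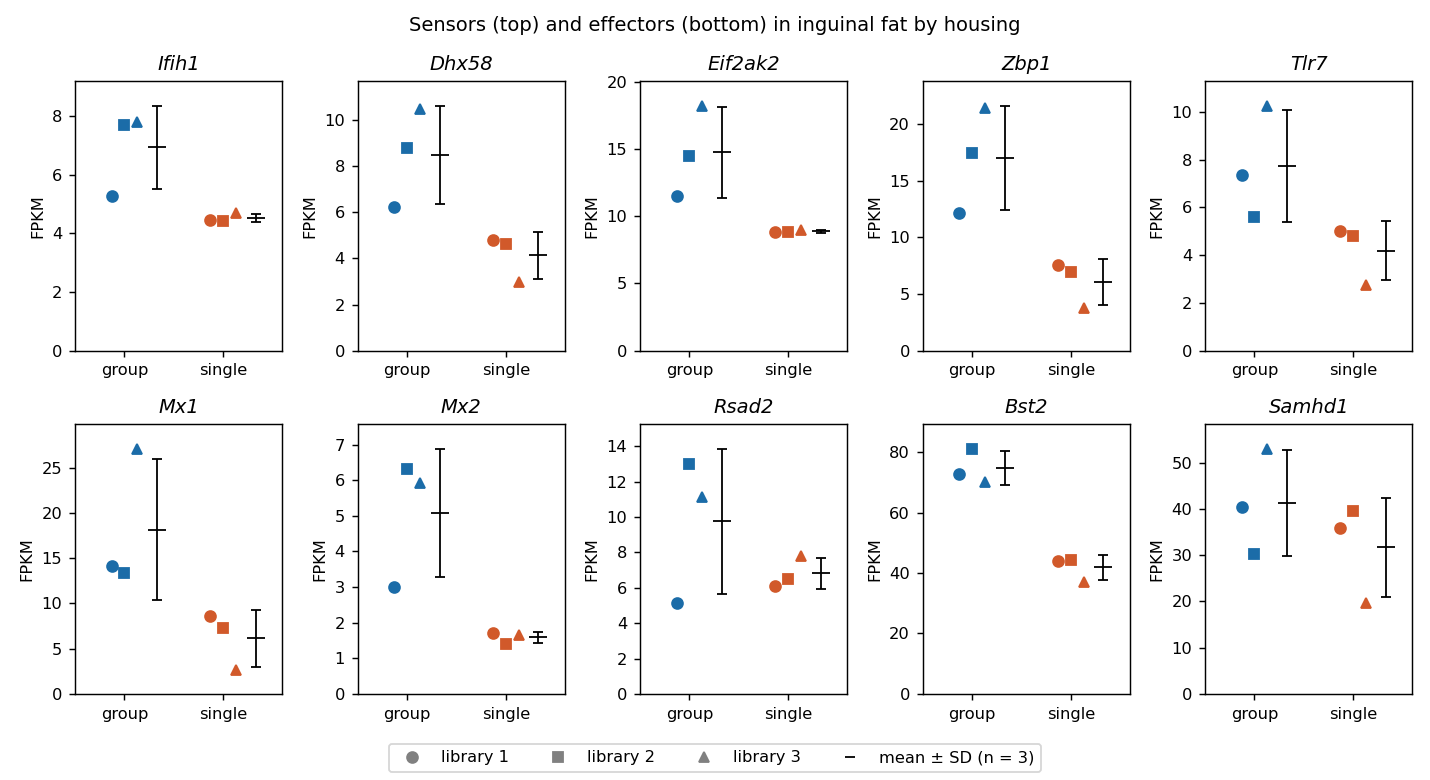
Level of each gene in FPKM (linear axis from 0) in the 3 group-housed (blue) and 3 single-housed (orange) libraries; marker shape gives the library number and the black bar the mean ± SD (n = 3). Bst2 stood at 70.2 to 81.1 FPKM under group housing and at 37.1 to 44.4 FPKM under single housing, while the groups of Rsad2 and Samhd1 overlapped.

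The members are bulk measurements, in which fewer cells of a type and less RNA per cell cannot be told apart. The macrophage and monocyte markers, 14 of 14 detected, moved on average with housing in the same direction as the members. Their mean level was 5.78 to 5.91 log2 CPM under group housing and 5.23 to 5.40 under single housing. By fitted fold change 12 were lower and 2 higher under single housing, and 6 of 14 were lower at an unadjusted p below 0.05 (0 at an adjusted p). Their summed FPKM, most of it Lyz2, overlapped between the groups at 921 to 1383 and 643 to 959 FPKM. Without Lyz2 the sums were 290 to 322 and 205 to 222 FPKM and did not overlap. A fit with their mean level as a covariate left 0 members at an unadjusted p below 0.05, where 0.376% of all genes passed. The members' median log2 fold change in it was -0.76, with Dhx58 at -0.93 ± 1.0, Zbp1 at -1.48 ± 1.18 and Mx2 at -2.18 ± 1.37 (SE), so the errors were several times those without the covariate. In these 6 libraries the mean level of those markers and housing cannot be told apart.

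Other measures moved with housing too, and their part in the members' values was not tested. The mitochondrial share of counts was 6.02% to 7.53% under group housing and 9.19% to 12.1% under single housing. Endothelial markers summed to 118 to 134 and 140 to 172 FPKM, with 2 of 6 higher at an unadjusted p below 0.05. Progenitor and fibroblast markers were lower in 6 of 7, with overlapping sums of 331 to 506 and 221 to 369 FPKM. Neutrophil markers (6 of 7 tested, Ly6g at 0 in some libraries) summed to 29.7 to 80.8 FPKM under group housing and 9.41 to 23.0 FPKM under single housing. Plasmacytoid dendritic cells are rich in Tlr7 and Bst2 and make much interferon. Their 7 markers had no shared direction: by fitted fold change 3 were lower and 4 higher under single housing. The median log2 fold change of these markers was 0.04, with 0 at an unadjusted p below 0.05. Summed, they stood at 94.1 to 147 and 62.7 to 129 FPKM, with overlapping groups. Most of each sum was Ly6d, except in single-housed library 3 (27.7 of 62.7 FPKM).

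Among the cytosolic sensors, the RIG-I-like receptor Ifih1 (MDA5), which binds long double-stranded RNA and signals through MAVS, differed modestly. Ifih1 (ENSMUSG00000026896; mm39 chromosome 2, 62426142 to 62476599) stood at 5.28, 7.70 and 7.81 FPKM under group housing (libraries 1, 2 and 3, an order kept below) and at 4.47, 4.44 and 4.68 FPKM under single housing. The single-housed mice lay close together and group-housed library 1 lay nearest to them. After scaling for composition group-housed library 1 (41.8 CPM) lay just under single-housed library 3 (42.8 CPM), so the groups overlapped. On the log2 scale the difference was -0.52 ± 0.18 (SE), with adjusted p = 0.635 in edgeR and 0.405 in DESeq2. Leaving out group-housed library 1 gave -0.68, and DESeq2 then called it (adjusted p = 0.0432).

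Dhx58 (LGP2), a relative of Ifih1 that binds RNA but lacks the signalling domain and tunes MDA5, showed a larger difference. Dhx58 (ENSMUSG00000017830; chromosome 11, 100585710 to 100595097) stood at 6.23, 8.79 and 10.5 FPKM under group housing and at 4.80, 4.62 and 2.97 FPKM under single housing. The groups did not overlap, and the lowest library was single-housed library 3. Its fitted log2 difference was -0.96 ± 0.22 (SE), with adjusted p = 0.410 in edgeR and 0.0185 in DESeq2. Of the 7 DESeq2 fits with libraries left out, only that without group-housed library 1 kept the call, with adjusted p = 5.76e-04, and the values of the others ran from 0.0527 without both muscle-rich libraries to 0.406 without group-housed library 3. The antisense gene Dhx58os overlaps it and held 124 counts in all libraries together against 3365 for Dhx58, and the sources used here do not say whether reads were counted by strand.

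Eif2ak2 (PKR) is a kinase that double-stranded RNA activates and that then halts translation by phosphorylating eIF2alpha. Eif2ak2 (ENSMUSG00000024079; chromosome 17, 79159993 to 79190002) stood at 11.5, 14.5 and 18.2 FPKM under group housing and at 8.85, 8.80 and 9.01 FPKM under single housing. The spread was wide in group-housed mice (SD 3.36 FPKM) and narrow in single-housed mice (SD 0.11 FPKM), and the groups did not overlap. Single housing was lower by a log2 difference of -0.63 ± 0.16 (SE), with adjusted p = 0.482 in edgeR and 0.113 in DESeq2. DESeq2 called it without group-housed library 1 (adjusted p = 0.00377) and without both muscle-rich libraries (0.0345). With the macrophage level as a covariate the difference was -0.23 ± 0.76.

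Zbp1, which recognizes Z-form nucleic acid and can start necroptosis through RIPK3, had the clearest difference of the sensors. Zbp1 (ENSMUSG00000027514; chromosome 2, 173048405 to 173060716) stood at 12.2, 17.5 and 21.4 FPKM under group housing and at 7.55, 6.96 and 3.74 FPKM under single housing. The lowest group-housed library was 1.57 times the highest single-housed one in scaled CPM. The fitted level was 2.66-fold lower under single housing, or -1.41 ± 0.27 on the log2 scale (SE), with adjusted p = 0.315 in edgeR and 5.09e-04 in DESeq2. DESeq2 kept the call in 6 of 7 fits with libraries left out and gave adjusted p = 0.0505 without group-housed library 3. With no filter on low counts edgeR called it too (adjusted p = 0.0432).

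Tlr7, the endosomal receptor of single-stranded RNA that signals through MyD88, is carried by macrophages, plasmacytoid dendritic cells and B cells. Tlr7 (ENSMUSG00000044583; chromosome X, 166087925 to 166113554) stood at 7.35, 5.61 and 10.3 FPKM under group housing and at 5.0, 4.82 and 2.77 FPKM under single housing. The groups did not overlap, but group-housed library 2 lay near the single-housed libraries 1 and 2. A log2 difference of -0.80 ± 0.24 (SE) had adjusted p = 0.588 in edgeR and 0.164 in DESeq2, which called it only without both muscle-rich libraries (0.00793). With the macrophage level as a covariate it was -0.14 ± 1.07, and with the B and plasma cell level it was -0.63 with an edgeR adjusted p of 0.0222, in a fit that called 1.8% of all genes.

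Mx1 and Mx2, dynamin-like GTPases whose intact forms block virus replication, had the largest differences of the members. Mx1 (ENSMUSG00000000386; chromosome 16, 97248235 to 97264107) stood at 14.1, 13.3 and 27.1 FPKM under group housing and at 8.59, 7.26 and 2.59 FPKM under single housing. Group-housed library 3 was far above the other libraries and single-housed library 3 far below them, and the groups did not overlap. The level was 2.80-fold lower under single housing, or -1.48 ± 0.42 on the log2 scale (SE), with adjusted p = 0.571 in edgeR and 0.0368 in DESeq2. The DESeq2 call ended without group-housed library 1 (adjusted p = 0.0910), without group-housed library 3 (0.621) and without single-housed library 2 (0.103).

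Mx2 (ENSMUSG00000023341; chromosome 16, 97336508 to 97362100) was the member of lowest level. It stood at 3.01, 6.30 and 5.93 FPKM under group housing and at 1.70, 1.40 and 1.66 FPKM under single housing, with 108 counts in the library that had the fewest. The groups did not overlap, and the single-housed values lay within a narrow band. The level was 3.01-fold lower in single-housed mice, or -1.59 ± 0.31 on the log2 scale (SE), with adjusted p = 0.315 in edgeR and 4.36e-04 in DESeq2, and DESeq2 kept this call in 7 of 7 fits with libraries left out. Mx1 and Mx2 lie 72.4 kb apart on opposite strands and are close relatives in sequence, so reads shared between them could blur both values.

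Rsad2 (viperin), an enzyme of the radical SAM family that makes a chain-terminating nucleotide, differed least clearly of the effectors beside Samhd1. Rsad2 (ENSMUSG00000020641; chromosome 12, 26492745 to 26506451) stood at 5.15, 13.0 and 11.1 FPKM under group housing and at 6.13, 6.52 and 7.79 FPKM under single housing. Group-housed library 1 was the lowest of all 6 libraries, so the groups overlapped. Housing differed by -0.43 ± 0.34 on the log2 scale (SE, edgeR adjusted p = 0.852). The difference was -0.10 without group-housed library 2 and -0.73 without group-housed library 1. Its neighbour Cmpk2, a mitochondrial nucleotide kinase gene that lies 12.8 kb away on the other strand and is induced with it, stood at 7.21, 10.5 and 10.6 FPKM under group housing and at 5.86, 5.81 and 6.07 FPKM under single housing. The groups of Cmpk2 did not overlap (log2 difference -0.58 ± 0.18, SE, with adjusted p = 0.588 in edgeR), and group-housed library 1 was its lowest group-housed library too.

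Bst2 (tetherin), which holds budding virus particles on the cell surface, had the smallest p of the 10 members. Bst2 (ENSMUSG00000046718; chromosome 8, 71986899 to 71990100) stood at 72.7, 81.1 and 70.2 FPKM under group housing and at 44.0, 44.4 and 37.1 FPKM under single housing. Replicates lay close together in both groups, at 74.7 ± 5.70 and 41.8 ± 4.13 FPKM (SD, n = 3 each), and the groups were well apart. The level was 1.69-fold lower under single housing, or -0.76 ± 0.12 on the log2 scale (SE), with adjusted p = 0.222 in edgeR and 3.03e-04 in DESeq2. DESeq2 kept this call in 7 of 7 fits with libraries left out, and the log2 difference was -1.33 ± 0.55 with the macrophage level as a covariate.

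Samhd1, which degrades deoxynucleotides and so starves reverse transcription, did not separate the groups. Samhd1 (ENSMUSG00000027639; chromosome 2, 156939453 to 156977185) stood at 40.5, 30.3 and 53.0 FPKM under group housing and at 36.0, 39.5 and 19.6 FPKM under single housing. Group-housed library 2 lay below single-housed libraries 1 and 2. A log2 difference of -0.30 ± 0.26 (SE) had adjusted p = 0.858 in edgeR and was -0.08 without single-housed library 3, and with the macrophage level as a covariate it turned to 0.58 ± 1.12.

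**Figure D2:**
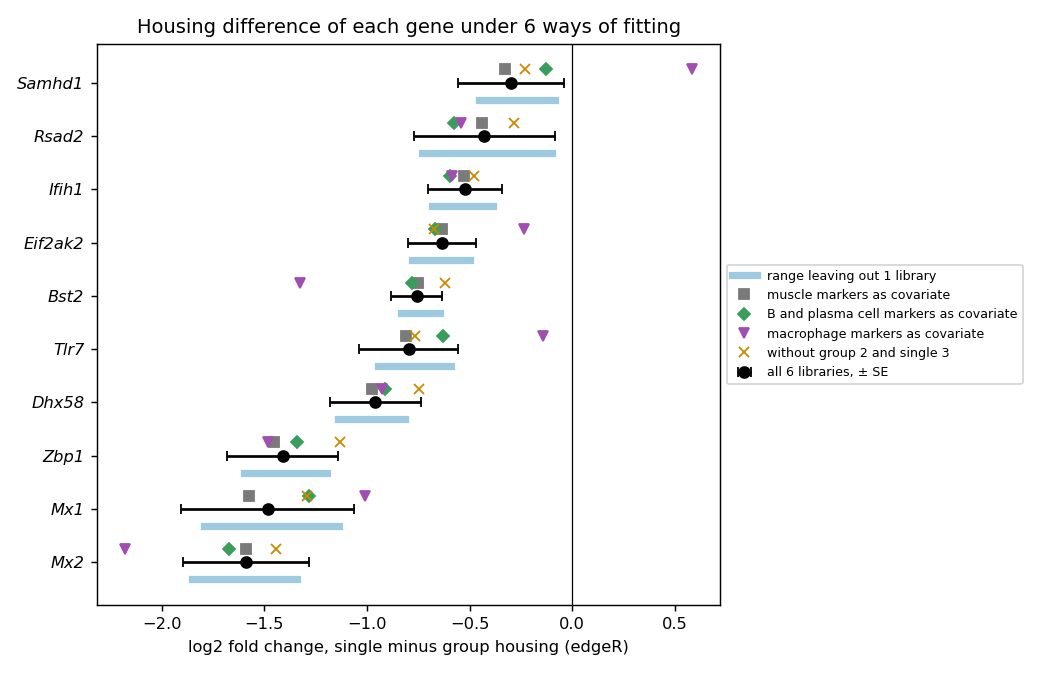
Log2 fold change, single minus group housing, of each gene (rows). Black points with bars are the fit on all 6 libraries ± SE, blue bars the range over the fits that leave out 1 library, and the other symbols fits with a marker level as a covariate or without both muscle-rich libraries (group 2 and single 3). All symbols lie below 0 except that of Samhd1 with macrophage markers as a covariate, at 0.58.

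Levels can be compared between members because FPKM is per length of exon. Under group housing Bst2 was highest at 74.7 ± 5.70 FPKM and Samhd1 next at 41.3 ± 11.4 FPKM (SD, n = 3), and each was apart from the gene below it in all 3 libraries. The 8 other members followed from Mx1 (18.2 ± 7.74 FPKM) through Zbp1, Eif2ak2, Rsad2, Dhx58, Tlr7 and Ifih1 to Mx2 (5.08 ± 1.80 FPKM), and no neighbours in that order were separated beyond the range of their libraries. Under single housing Eif2ak2 (8.89 ± 0.11 FPKM) and Rsad2 (6.81 ± 0.87 FPKM) stood above Mx1 (6.15 ± 3.15 FPKM) and Zbp1 (6.08 ± 2.05 FPKM), although Rsad2, Mx1 and Zbp1 overlapped. Bst2 (41.8 ± 4.13 FPKM) and Samhd1 (31.7 ± 10.6 FPKM) remained the highest and overlapped each other, and Mx2 (1.59 ± 0.16 FPKM) remained the lowest, apart from Dhx58.

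The members varied among mice of a group as well as between groups. In group-housed mice the coefficient of variation of scaled CPM ran from 13.7% (Bst2) to 44.7% (Rsad2), and in single-housed mice from 3.09% (Bst2) to 47.6% (Mx1). Counting error alone gives 9.62% at the smallest count of any member (Mx2) and 1.5% at the smallest count of Samhd1. Group-housed library 1 had the lowest group-housed value in 7 of 10 members. There Rsad2 stood at 0.42 and Mx2 at 0.49 of the mean of the other 2 group-housed libraries, while the summed macrophage markers stood at 1.19 (1.0 without Lyz2) and the B and plasma cell markers at 1.07.

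Single-housed library 3 divided the list. Mx1 stood there at 0.37, Zbp1 at 0.58, Samhd1 at 0.59, Tlr7 at 0.64 and Dhx58 at 0.71 of the mean of single-housed libraries 1 and 2. In contrast Rsad2 stood at 1.39, Mx2 at 1.21, Ifih1 at 1.19 and Eif2ak2 at 1.15 of that mean, with Bst2 between at 0.95. In the same library the summed B and plasma cell markers stood at 0.41 and T and NK cell markers at 0.29 of the mean of the other 2. Jchain of the B and plasma cell list went the other way, at 53.5 FPKM against 30.8 and 15.0 FPKM. So, slightly, did Mzb1 of that list, at 3.79 FPKM against 3.64 and 3.34 FPKM. Macrophage markers stood at 0.69 with Lyz2 and 1.02 without it, and plasmacytoid dendritic cell markers at 0.51 with Ly6d and 1.47 without it. That 1.47 rests on Cox6a2 alone, which reached 22.2 FPKM there but only 1.08 and 1.31 FPKM in the other 2. Every other plasmacytoid dendritic cell marker was lower there than in both of them, such as Siglech at 5.48 FPKM (12.0 and 12.4 in the other 2). Tcf4 was lower only slightly (6.15 FPKM, with 6.46 and 6.60 in the other 2). Cox6a2 was high in the libraries with most skeletal muscle transcripts. After single-housed library 3 came group-housed libraries 2 (5.35 FPKM) and 1 (3.27 FPKM), with 0.82 to 1.31 FPKM in the rest. The muscle markers summed to 3145, 1101 and 245 FPKM in those libraries and to 17.5 to 21.3 FPKM in the rest. Whether Cox6a2 reads came from muscle was not tested, nor was the part of these cell types in the members' values. All 10 log2 fold changes were below 0 without single-housed library 3 as well.

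**Figure D3:**
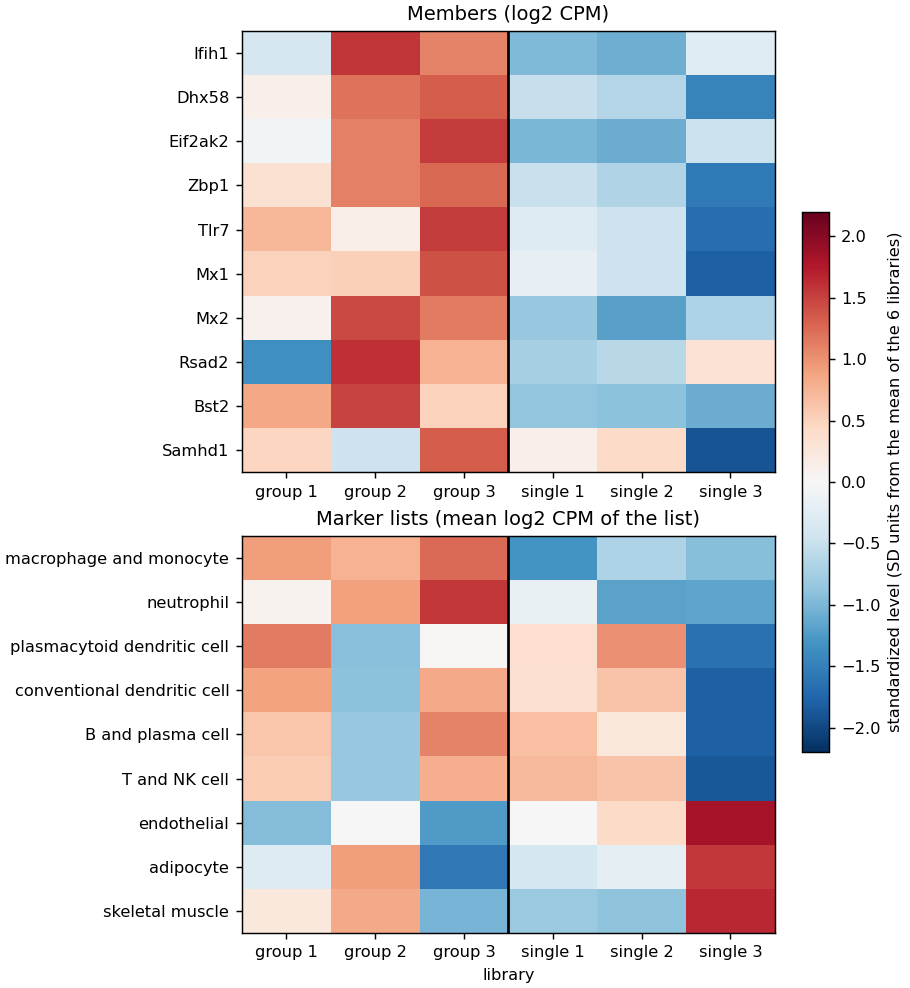
Standardized level (colour, in SD units from the mean of the 6 libraries) of the 10 members and of 9 marker lists in each library. Mx1, Zbp1, Samhd1, Tlr7, Dhx58 and Bst2 have their lowest level in single-housed library 3, as do the B cell, T cell and dendritic cell marker lists, while Rsad2 has its lowest in group-housed library 1.

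The rest of the pathway was read from 9 lists of 107 genes that hold no member. Of these, 96 were tested and 0 passed in edgeR over all genes. At the unadjusted threshold 19 were lower and 0 higher, and DESeq2 called 8 lower and 0 higher. These counts stand against 3.47% of all genes lower at that p and 0.713% called lower by DESeq2. All 19 belonged to 4 lists, described first.

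Other nucleic acid sensors were all on the lower side (10 of 10 below 0, median log2 fold change -0.47), with 4 at an unadjusted p below 0.05. Ifi204, a DNA-binding member of the interferon-inducible p200 family, stood at 15.7, 24.7 and 21.4 FPKM under group housing and at 4.77, 6.33 and 9.56 FPKM under single housing (log2 fold change -1.48 ± 0.33 (SE), edgeR adjusted p = 0.399, DESeq2 adjusted p = 0.00429). The other 3 were Tlr13 (-1.06 ± 0.35), a receptor of bacterial ribosomal RNA in the mouse, Ddx60 (-0.58 ± 0.18), a helicase cofactor of the RIG-I-like receptors, and Rigi (-0.46 ± 0.20), listed in the table under its older symbol Ddx58. The p200 genes are close copies of each other, so reads may be shared out among them.

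Among 16 adaptors, kinases and transcription factors downstream of the sensors, 14 were below 0 and 3 were lower at an unadjusted p below 0.05. Irf7, which amplifies the interferon response, had the smallest p (log2 fold change -1.33 ± 0.19 (SE), edgeR adjusted p = 0.128, DESeq2 adjusted p = 6.79e-07). Myd88, the adaptor of Tlr7, stood at 16.2, 22.5 and 21.5 FPKM under group housing and at 13.5, 12.9 and 13.2 FPKM under single housing (-0.52 ± 0.16), and Trim25, a ubiquitin ligase of RIG-I signalling, had -0.44 ± 0.17. Irak4, the kinase that MyD88 recruits, had -0.27 ± 0.13 (edgeR adjusted p = 0.766). Irf7, Myd88 and Irak4 overlap genes with many counts on the opposite strand (Phrf1, Acaa1a and Twf1), by 45, 1736 and 3865 bases. Reads from either gene of a pair may be mixed over these stretches, of which that of Irf7 is short.

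The signal transducers of interferon were all below 0 (10 of 10, median log2 fold change -0.29), and 4 were lower at an unadjusted p below 0.05. Usp18, which shuts down signalling at the interferon receptor, stood at 10.5, 13.3 and 15.9 FPKM under group housing and at 6.99, 7.28 and 5.54 FPKM under single housing (-0.92 ± 0.16 (SE), edgeR adjusted p = 0.278, DESeq2 adjusted p = 7.23e-04). Of the interferon-activated complex, Stat2 had -0.73 ± 0.18 and Irf9 -0.61 ± 0.16, both with groups that did not overlap. Irf9 shares a stretch with Rnf31 on the same strand.

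Other interferon-induced effectors had 19 of 20 tested genes below 0 (median log2 fold change -0.44), with 8 lower at an unadjusted p below 0.05 and 4 called lower by DESeq2. The genes of smallest p were Ifi35 (-0.51 ± 0.09), Xaf1 (-0.81 ± 0.16), Ifi44 (-1.44 ± 0.32) and the exonuclease gene Isg20 (-0.70 ± 0.16). Ifi35 was the steadiest of them, at 31.2, 30.1 and 32.6 FPKM under group housing and 21.3, 21.4 and 19.3 FPKM under single housing.

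The remaining 5 lists held 0 genes at an unadjusted p below 0.05, which does not show that they were equal. For the interferons themselves, Ifnb1, Ifna1, Ifna2, Ifna4, Ifna5, Ifne, Ifnl2 and Ifnl3 were listed at 0 counts in all 6 libraries and Ifnk at 1 count in 1 library, where 3 counts, the limit that 0 allows, equal 0.0849 to 0.140 CPM per library. The interferon-alpha genes are near-identical copies, so reads could also have been lost to them. Ifng was low in all libraries (0.06 to 0.94 FPKM). Of the receptors, the genes of smallest p were Ifngr2 at -0.27 ± 0.18, Il10rb at -0.18 ± 0.14 and Ifngr1 at -0.06 ± 0.13.

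Lists tied to single members had medians nearer 0 than their member. The 10 genes of the eIF2alpha kinase branch had a median of -0.05, against -0.63 for Eif2ak2, with the phosphatase subunit gene Ppp1r15a at -0.21 ± 0.13, Ppp1r15b at 0.07 ± 0.12 and the kinases Eif2ak1 and Eif2ak3 at 0.16 ± 0.10 and -0.09 ± 0.15. The 5 necroptosis partners of Zbp1 had a median of -0.31, with Casp8 at -0.31 ± 0.14, the executioner pseudokinase Mlkl at -0.45 ± 0.21, Ripk3 at -0.46 ± 0.27 and Fadd at 0.08 ± 0.19. The 8 genes of deoxynucleotide supply had a median of -0.03, with Dck at -0.32 ± 0.19, Rrm2b at 0.11 ± 0.10, Tk1 at -0.21 ± 0.27 and Rrm2 at 0.14 ± 0.25. Genes that edit or clear nucleic acid had a median of -0.20 over 10 tested, with Rnaset2a at -0.63 ± 0.27, the RNA editor Adar at -0.47 ± 0.23, Dnase2a at -0.27 ± 0.21 and Pld3 at -0.18 ± 0.15. Trex1 was listed at 0 counts in every library and overlaps Atrip on the same strand, so its 0 is not read as absence.

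**Figure D4:**
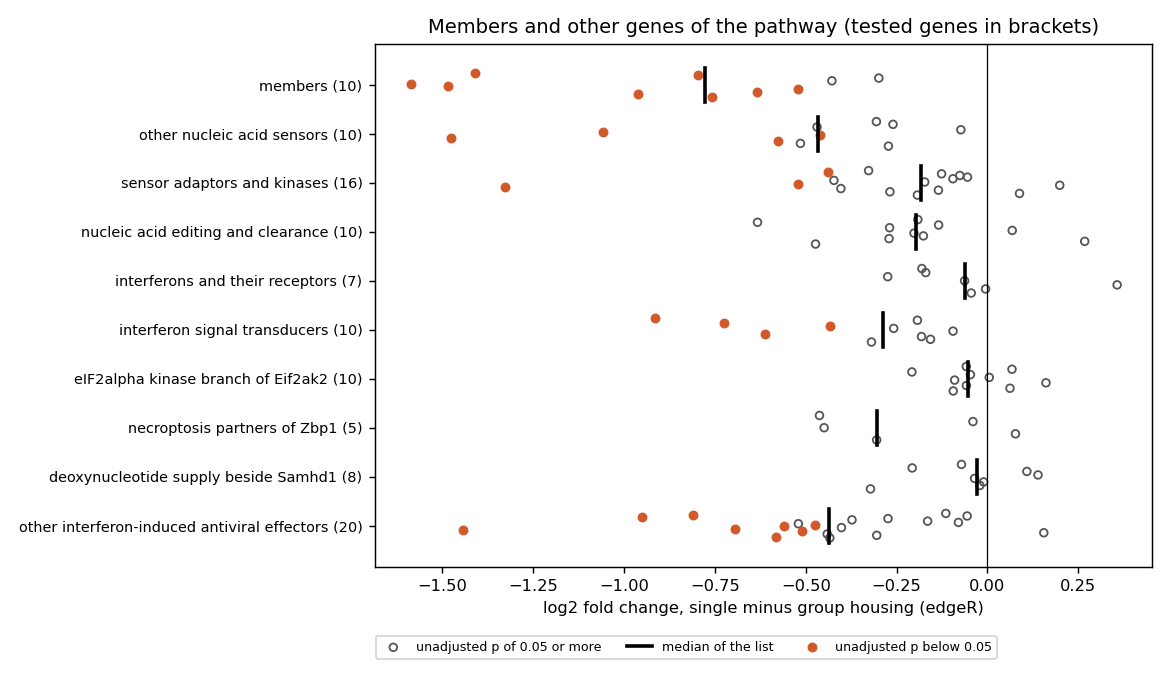
Log2 fold change, single minus group housing, of the members (top row) and of 9 other lists of the pathway (1 circle per tested gene); filled circles have an unadjusted p below 0.05 and the black bar is the median of the list. The medians of the other lists lie between -0.47 and -0.03, and that of the members at -0.78.

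By profile over the 6 libraries, the genes outside the list nearest to the mean standardized profile of the members were Usp18, Cers6, Oasl1, Slfn9, Mir6395 and Herc6. Their root mean square distance from it, in SD units of log2 CPM, was 0.09, 0.09, 0.13, 0.13, 0.16 and 0.16. Oasl1, a relative of the oligoadenylate synthetases, stood at 5.21 ± 1.48 and 1.84 ± 0.45 FPKM (group and single housing, SD, n = 3 each), and the ceramide synthase gene Cers6 at 3.52 ± 0.75 and 1.95 ± 0.35 FPKM. Mir6395 rests on 98 counts in all and overlaps Saraf, so its place is uncertain. Of the members, Dhx58 lay nearest to the shared profile (0.14) and Rsad2 (0.95) and Samhd1 (0.93) lay farthest, and the pair Dhx58 and Zbp1 was the most alike of all member pairs (0.11) while Rsad2 and Samhd1 was the least alike (1.56). These distances describe 6 libraries that share their depth and cell makeup.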

How the data were processed

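Per the labels' protocols, total RNA was isolated with TRIzol and cleaned on columns after DNase treatment. The submitters' processing notes name the build mm39, while the aligner, counter, annotation release and strand setting were found in none of the sources used. The deposited table holds the authors' raw counts and FPKM per gene. The FPKM equal counts over exon length and library total (100% within 0.0051), with no correction for composition. A further 24 columns of per-sample values match no sample here and were not used. The 2639 rows without a symbol took 0.118% to 0.171% of a library's counts.

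Counts of 18085 genes that passed filterByExpr were tested with edgeR 4.0.16 (R 4.3.3), TMM scaling and its two-sided quasi-likelihood F test with Benjamini-Hochberg adjustment over all of them. The threshold was 0.05 on the adjusted p. SE is the absolute log2 fold change over the square root of F. Folds are fitted values. DESeq2 1.42.0 and limma 3.58.1 on log2(FPKM + 1) were alternatives. The scripts were tested on simulated data. Replicates differed by more than sampling noise in every pair of a group. P-values measure the spread between these mice. The members, lists and alternatives were chosen with earlier results of these data known. Named genes are the members, the 4 genes of smallest p of each list, Cmpk2 and the 6 genes nearest in profile, predicted genes left out, and 1 named gene is not reported here. Ratios between members were chosen after their values were seen. Alternatives were other scalings, filters, left-out libraries, a replicate block and marker levels as covariates.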

Additional observations from a re-analysis of the deposited data

How the results depend on the processing

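Under 19 alternatives and 7 DESeq2 fits added after the data were seen, 1 of the 260 log2 fold changes of members was above 0, Samhd1 with the macrophage level as a covariate (0.58). The cause was not tested. The members' median ran from -0.86 to -0.70. Genes past the threshold numbered 0 in edgeR, 207 in DESeq2, 53 with no filter on low counts, 22 without both muscle-rich libraries, 977 with the muscle level and 325 with the B and plasma cell level as a covariate, and 403 in DESeq2 without those libraries. Members past it numbered 0, 5, 1, 0, 7, 5 and 6 in the same order. DESeq2 without 1 library gave 153, 215 and 64 genes without group-housed libraries 1, 2 and 3, and 122, 126 and 178 without single-housed libraries 1, 2 and 3. Members called there numbered 6, 4, 2, 4, 3 and 4, and edgeR without 1 library called 0 of each. In edgeR, members at an unadjusted p below 0.05 numbered 8 (6.96% of all genes), and 7 to 9 without 1 library (4.27% to 9.57% of all genes). They numbered 9 with the muscle level (22.4% of all genes) and 0 with the macrophage level (0.376%) as a covariate. Members whose groups do not overlap numbered 7 to 9, with 9 only in fits with libraries left out. Groups of fewer libraries separate more easily, and the share over all genes (6.78% lower) was taken for all 6 libraries only.

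Same-numbered libraries of the groups correlated at 0.121, -0.562 and -0.702 in their deviations from the group means. The highest correlation of any pair, 0.716, joined the muscle-rich libraries. Such correlations cannot show whether a shared batch lies behind the numbers. A replicate block left 0 genes past the threshold, 590 against 1259 at an unadjusted p below 0.05, 8 members at that p and a median of -0.77 for the members. With library totals alone the median of all genes was -0.10, and the members are read against that shift. With 3 mice a group the spread between mice limits every test, and values of Mx2 rest on as few as 108 counts.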

Other observations

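Ratios between members, formed after their values were seen, set the same 2 libraries apart from the other 4. The ratio of Mx1 to Mx2 counts was 1.97 in group-housed library 2 and 1.45 in single-housed library 3, and 4.26 to 4.85 in the others. Samhd1 over Rsad2 was 4.91 and 5.30 in those libraries and 10.1 to 16.6 in the others, and Tlr7 over Ifih1 was 0.36 and 0.30 against 0.54 to 0.70. Each of these ratios spans both housing groups on the high and on the low side. Group-housed library 2 and single-housed library 3 also had the most skeletal muscle transcripts (1101 and 3145 summed FPKM of 10 markers). Their summed B and plasma cell markers were the lowest (355 and 198 FPKM over 8 markers). Jchain of that list was instead highest in single-housed library 3 (53.5 FPKM), and Mzb1 was not low there (3.79 FPKM, against 2.39 to 5.96 FPKM in the others). The part of cell makeup in the ratios was not tested.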
